A study of Mus musculus with 6 samples.

Results

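Cargo receptors and p24 proteins select the proteins that leave the endoplasmic reticulum (ER), and the levels of 10 of their transcripts were followed in pancreatic islets of Sec16b+/+ and Sec16b-/- mice. The genes were selected by symbol from the deposited table: the p24 family members Tmed2, Tmed3, Tmed9 and Tmed10, the lectins Lman1 and Lman2 with the Lman1 partner Mcfd2, the receptor Surf4, and the recycling proteins Ergic1 and Ergic3. All 10 were among the 18437 genes of the table, and all 10 passed the filter on low values that left 16042 genes for testing. Islets came from male mice aged 30 weeks, and gave 3 libraries of the genotype Sec16b+/+ (wild type, called WT1, WT2 and WT3 by their replicate number) and 3 of Sec16b-/- (knockout, KO1, KO2 and KO3). The labels give no strain, allele design or treatment, and they do not say whether a library is 1 animal or a pool. The p-values therefore refer only to these libraries and not to a known number of animals. Sec16b encodes a scaffold of ER exit sites, and the comparison asked how islet transcripts differ without it.

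Secretory proteins leave the ER in vesicles with a COPII coat, and escaped ER proteins and the receptors themselves return from the Golgi in vesicles with a COPI coat. The p24 proteins span the membrane once, bind both coats through short cytosolic tails, and assemble into complexes that draw on the alpha, beta, gamma and delta subfamilies. Lectin receptors hold glycoproteins by their mannose-rich glycans, and Surf4 exports soluble cargo. Beta cells send a very large flow of proinsulin through this route, and Surf4 has been described as a proinsulin receptor.

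Lman2, Tmed9 and Surf4 had knockout values entirely below the wild type values, and Ergic3 had the narrowest spread of the 10. The stretches before the transcription starts of these 4 genes are shown, picked by those values and not by their letters. Each is the 250 bases before the start in RefSeq's table (build GRCm38.p6), 5′ to 3′, with CCACG and CCAAT on either strand in capitals. These 2 short elements make up the ER stress response element, which is CCAAT, then any 9 bases, then CCACG, and is read by the factors ATF6 and XBP1 of the unfolded protein response.
Lman2, chr13:55362784-55363033, minus strand: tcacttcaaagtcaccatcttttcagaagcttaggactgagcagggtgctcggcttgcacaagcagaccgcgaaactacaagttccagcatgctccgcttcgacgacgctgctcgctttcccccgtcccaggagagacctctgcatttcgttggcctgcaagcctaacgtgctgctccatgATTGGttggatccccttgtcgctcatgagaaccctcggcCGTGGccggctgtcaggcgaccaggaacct
Tmed9, chr13:55592885-55593134, plus strand: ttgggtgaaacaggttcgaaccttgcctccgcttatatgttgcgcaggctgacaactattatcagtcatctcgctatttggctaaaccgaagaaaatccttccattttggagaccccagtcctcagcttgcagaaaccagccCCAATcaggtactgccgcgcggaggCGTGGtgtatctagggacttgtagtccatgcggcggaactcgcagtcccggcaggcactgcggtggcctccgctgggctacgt
Surf4, chr2:26933512-26933761, minus strand: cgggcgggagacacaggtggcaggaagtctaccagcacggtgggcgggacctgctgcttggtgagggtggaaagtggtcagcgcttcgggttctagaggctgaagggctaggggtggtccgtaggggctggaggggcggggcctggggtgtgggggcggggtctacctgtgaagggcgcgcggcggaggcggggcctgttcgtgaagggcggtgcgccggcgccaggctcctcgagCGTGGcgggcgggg
Ergic3, chr2:156007778-156008027, plus strand: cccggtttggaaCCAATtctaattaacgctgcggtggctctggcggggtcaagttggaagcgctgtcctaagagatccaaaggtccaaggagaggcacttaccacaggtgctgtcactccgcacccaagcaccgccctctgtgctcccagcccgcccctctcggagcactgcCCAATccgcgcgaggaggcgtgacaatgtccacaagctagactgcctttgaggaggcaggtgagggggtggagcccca
The table held 8 of the 10 genes, all but Tmed2 and Lman1. CCACG was present in 7 of these 8 stretches, with Ergic3 as the exception, against 40.0% of the 14977 promoter stretches of tested genes and 28.3% of all 32851. Tmed3, Tmed10 and Ergic1, whose groups overlapped, also held it, and Mcfd2, with a higher mean log2 level in the knockout, held 3 copies. A link between the motif and the knockout values was not tested. CCAAT was present in 5 of 8, against 34.6% for tested genes. In Surf4 the CCACG lay 10 to 14 bases before the start, in Lman2 26 to 30 and in Tmed9 79 to 83. The complete ER stress response element was found in 0 of the 8, and in 7 of 19 ER chaperone and unfolded protein response genes with a stretch in the table. Its frequency among tested genes was 0.127%. The second such element (ATTGG, any base, then CCACG) and the XBP1 core motif TGACGTG were also in 0 of 8, all motifs being searched on both strands. They were found in 0.0401% and 2.31% of the stretches of tested genes. A match describes the letters only, and GC content differs between single stretches, from 44.8% for Tmed10 to 72.4% for Surf4. The median GC content was 59.4% in the 8, near the 59.2% for tested genes, and 52.4% for all promoter stretches. The Lman2 and Tmed9 starts lie 230 kb apart on chromosome 13 of that build.

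Between 22071895 and 26806787 reads per library were recovered from the deposited values. Sec16b had lower values in the knockout libraries without being absent, at normalized read counts of 1655, 773 and 1786 in WT1 to WT3 and 553, 433 and 750 in KO1 to KO3, so the groups were apart by little and the difference did not pass (adjusted p = 0.993 in limma). All 10 beta cell markers were present in each library and took 9.36% to 15.1% of the reads. The 23 acinar markers, genes of the exocrine pancreas, were all detected, with summed levels of 274885 to 1278149 in wild type and 168599 to 4582326 in knockout libraries. Of 11 lymphocyte markers, 8 were in the table, with summed levels of 255 to 24029 in wild type and 7522 to 152884 in knockout libraries; Ms4a1, Cd3d and Cd3e were not analysed here. The alpha, delta and PP, endothelial, duct, macrophage and stellate cell markers were in the table in full, and 0 marker values were at zero. In RNA from whole islets, fewer cells of a type and less RNA per cell cannot be told apart.

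Across the 10 genes, 9 had a lower mean log2 level in the knockout and 1, Mcfd2, a higher one, and none passed the test. The fold changes ran from −0.28 for Lman2 to 0.05 for Mcfd2 on the log2(normalized count + 1) scale, with a median of −0.10, beside a median of −0.00302 over all tested genes. A value below 0 was found for 50.6% of all tested genes. Among the 4800 tested genes with a mean normalized count of at least 1000, which include all 10 members, 64.6% were below 0 and the median was −0.05. With the adjusted p required to be under 0.05, limma called 0 of 16042 genes (0%), edgeR's quasi-likelihood test on the recovered reads also called 0 (0%), and neither called a member. Before adjustment, limma had 494 genes with p under 0.05, and edgeR had 509; each found 1 member, Lman2, on the lower side. For limma these were 218 lower genes (1.36%) and 276 higher ones (1.72%), and among genes with a mean of at least 1000 the lower ones made up 2.65%. DESeq2 called 12 of 10555 genes with a defined adjusted p (0.114%), and 0 of them were members. Marker lists of the islet's cell types were read by log2 fold change too, and 9 of 10 beta cell markers were below 0 (median −0.13, median SE 0.33). Above 0 were 6 of 6 alpha, 4 of 5 delta and PP, 5 of 6 endothelial, 22 of 23 acinar and 8 of 8 lymphocyte markers. Their medians were 0.24, 0.27, 0.26, 0.82 and 2.63, with median SEs of 0.33, 0.20, 0.18, 1.22 and 1.89. Also above 0 were 4 of 6 duct (median 0.60), 3 of 6 macrophage (median −0.02) and 2 of 6 stellate cell markers (median −0.23). Limma called 0 of these markers, and their part in the lower values of the 10 genes was not tested beyond the acinar and lymphocyte covariates.

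Knockout values lay entirely below wild type values in 3 of the 10, Lman2, Tmed9 and Surf4. The same held for 5.22% of all tested genes and for 9.29% of those with a mean of at least 1000. In 0 members did the knockout values lie entirely above, against 3.85% of all tested genes and 1.73% of those with a mean of at least 1000. Without WT1 the count was 5, with Tmed10 and Lman1 added, against 11.4% of all tested genes and 21% of those with a mean of at least 1000. Without KO1 it was also 5, with Tmed2 and Lman1 added, against 8.83% and 14.8%. Both libraries had lymphocyte marker levels above the other 4, and KO1 the highest acinar share. With both left out, a step added after seeing the data, the count was 6 (Tmed2, Tmed9, Tmed10, Lman1, Lman2 and Surf4), against 16% and 28.1%. As the groups had 3 libraries each, an exact permutation test of a single gene cannot give a two-sided p below 0.1.

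**Figure D1:**
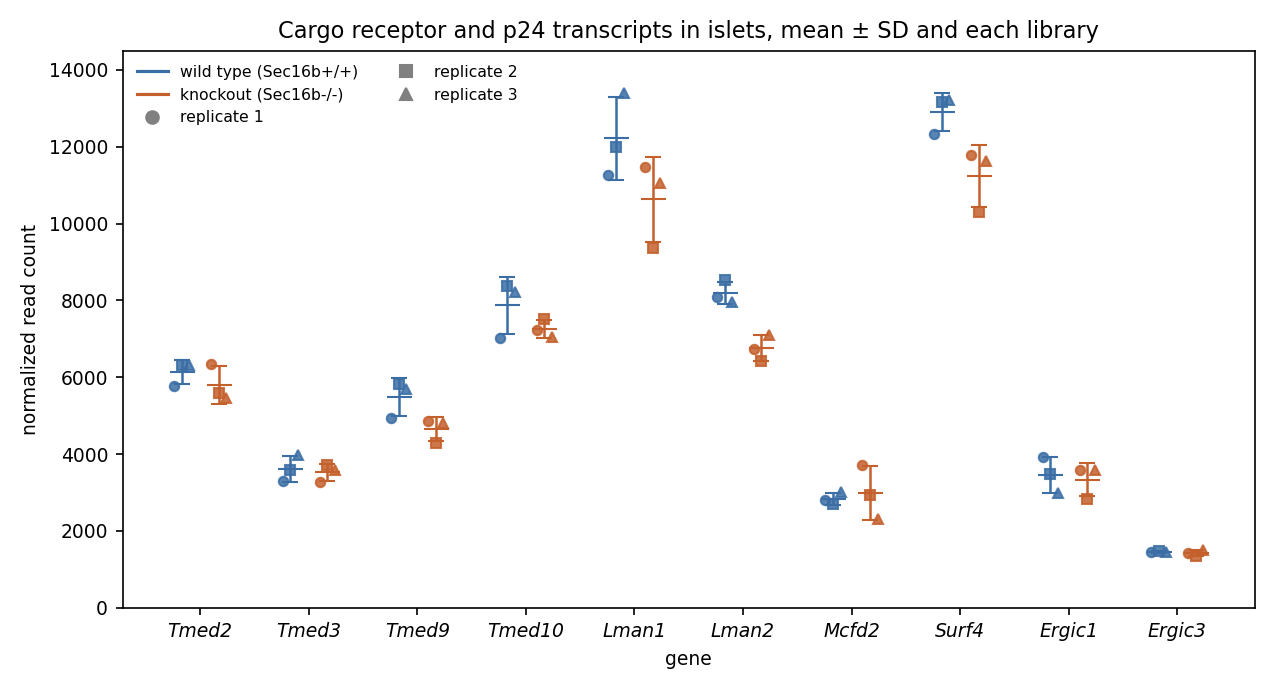
Normalized read counts of the 10 genes in each library (points; circle, square and triangle for replicates 1, 2 and 3) with the group mean and SD (bars, n = 3); wild type in blue, knockout in orange. Lman2, Tmed9 and Surf4 show no overlap between the groups, while Tmed3, Mcfd2, Ergic1 and Ergic3 overlap widely.

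Among the lectins, Lman2 stood furthest from 0. Lman2, a cycling lectin of the early secretory pathway that binds high-mannose glycoproteins, had normalized counts of 8079, 8521 and 7967 in WT1 to WT3 and 6739, 6423 and 7113 in KO1 to KO3. All 3 knockout libraries lay below the lowest wild type library, and the spread within each genotype was small. The mean of 8189 ± 293 (SD, n = 3) in wild type compares with 6758 ± 345 (SD, n = 3) in the knockout. The log2 fold change of Lman2 was −0.28 (SE 0.09, 95% interval −0.49 to −0.06), or 1.21-fold lower. The difference did not pass limma's adjustment over all genes (adjusted p = 0.993), and its unadjusted p of 0.0182 ranked 135th of 16042. With the acinar marker level as a covariate it was −0.26 and with the lymphocyte marker level −0.25.

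Lman1, the mannose lectin that carries coagulation factors V and VIII among other glycoproteins, had groups that overlapped in 1 place. Its values were 11261, 12003 and 13389 in WT1 to WT3 and 11461, 9367 and 11069 in KO1 to KO3. KO1 lay just above WT1, and KO2 was the lowest of the 6. The log2 fold change was −0.20 (SE 0.13, 95% interval −0.50 to 0.10, adjusted p = 0.993 in limma), and it was −0.11 without KO2, −0.13 without WT3 and −0.31 with array weights.

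Mcfd2, the small calcium-binding partner that Lman1 needs for its coagulation factor cargo, differed from Lman1 in its pattern. Its values were 2808, 2710 and 3012 in WT1 to WT3 and 3707, 2950 and 2310 in KO1 to KO3. The knockout libraries held both the highest and the lowest of the 6 values, and their SD of 699 compares with 154 in wild type (n = 3 each). The log2 fold change was 0.05 (SE 0.17, 95% interval −0.36 to 0.45, adjusted p = 0.994 in limma). It turned to −0.12 without KO1, to −0.05 with the acinar covariate and to −0.04 with the lymphocyte covariate. The ratio of Lman1 to Mcfd2 reads within a library was 4.01, 4.43 and 4.44 in WT1 to WT3 and 3.09, 3.18 and 4.79 in KO1 to KO3. It was thus lower than in any wild type library in KO1 and KO2 and higher in KO3.

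Surf4, the multispanning receptor for soluble cargo, had the highest level per kilobase of the 10. Its normalized counts were 12342, 13169 and 13217 in WT1 to WT3 and 11788, 10310 and 11637 in KO1 to KO3. Even the highest knockout library, KO1, was below the lowest wild type library, WT1. Wild type libraries averaged 12909 ± 492 (SD, n = 3), knockout libraries 11245 ± 813 (SD, n = 3). The log2 fold change was −0.20 (SE 0.11, 95% interval −0.45 to 0.05), or 1.15-fold lower, and did not pass (adjusted p = 0.993 in limma). Without KO2 it was −0.14.

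The 4 p24 genes represent the 4 subfamilies, and Tmed9 of the alpha subfamily was the only one of them whose groups did not overlap. Its values were 4931, 5831 and 5696 in WT1 to WT3 and 4875, 4298 and 4804 in KO1 to KO3. The gap was narrow, because WT1 was only just above KO1. Wild type libraries averaged 5486 ± 485 (SD, n = 3), knockout ones 4659 ± 315 (SD, n = 3), with a log2 fold change of −0.23 (SE 0.10, 95% interval −0.48 to 0.01, adjusted p = 0.993 in limma). With the lymphocyte covariate, the value moved to −0.16.

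Tmed2, of the beta subfamily, and Tmed10, of the delta subfamily, are partners in the best studied p24 complexes. Tmed2 was at 5786, 6316 and 6315 in WT1 to WT3 and 6357, 5584 and 5449 in KO1 to KO3. KO1 gave the highest value of all 6 libraries and the other two knockout libraries the lowest. The log2 fold change of Tmed2 was −0.08 (SE 0.10, 95% interval −0.32 to 0.15), and it was −0.15 without KO1, −0.04 without KO3 and −0.16 with total count scaling. Tmed10 was at 7019, 8375 and 8230 in WT1 to WT3 and 7243, 7516 and 7047 in KO1 to KO3. Here the lowest value belonged to WT1, and the 3 knockout libraries were close together. Its log2 fold change was −0.11 (SE 0.10, 95% interval −0.36 to 0.14). It moved to −0.03 with the lymphocyte covariate, −0.06 without WT2, −0.19 without WT1 and −0.18 with total count scaling. The ratio of Tmed2 to Tmed10 reads stayed between 0.743 and 0.878 in the 6 libraries, with means of 0.782 ± 0.037 in wild type and 0.798 ± 0.071 in knockout (SD, n = 3 each).

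Tmed3, of the gamma subfamily, had values of 3294, 3591 and 3966 in WT1 to WT3 and 3282, 3712 and 3583 in KO1 to KO3. The ranges nearly coincided. The log2 fold change was −0.03 (SE 0.10, 95% interval −0.28 to 0.21), and it turned positive in 3 of 22 alternatives. Set against Tmed9 in the same libraries, Tmed3 had read ratios of 0.668, 0.616 and 0.696 in WT1 to WT3 and 0.673, 0.864 and 0.746 in KO1 to KO3, so KO2 and KO3 exceeded WT1 to WT3 and KO1 lay among them. Neither Tmed2, Tmed10 nor Tmed3 passed (adjusted p = 0.993 in limma for each).

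Ergic1 and Ergic3 are membrane proteins that cycle between the ER and the Golgi by way of the intermediate compartment. Ergic1 was at 3921, 3472 and 2993 in WT1 to WT3 and 3589, 2839 and 3577 in KO1 to KO3. The libraries of both genotypes were spread over the same range. Its log2 fold change was −0.05 (SE 0.14, 95% interval −0.39 to 0.28), and it turned to 0.04 without WT1 and to 0.06 without KO2. Ergic3 was at 1441, 1491 and 1450 in WT1 to WT3 and 1423, 1359 and 1502 in KO1 to KO3. The highest Ergic3 value was only 1.11 times the lowest, against 1.60 times for Mcfd2, the widest of the 10. Its log2 fold change was −0.03 (SE 0.08, 95% interval −0.23 to 0.16), an interval that holds changes of the size seen for Surf4. Neither gene passed (adjusted p = 0.993 in limma for each).

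**Figure D2:**
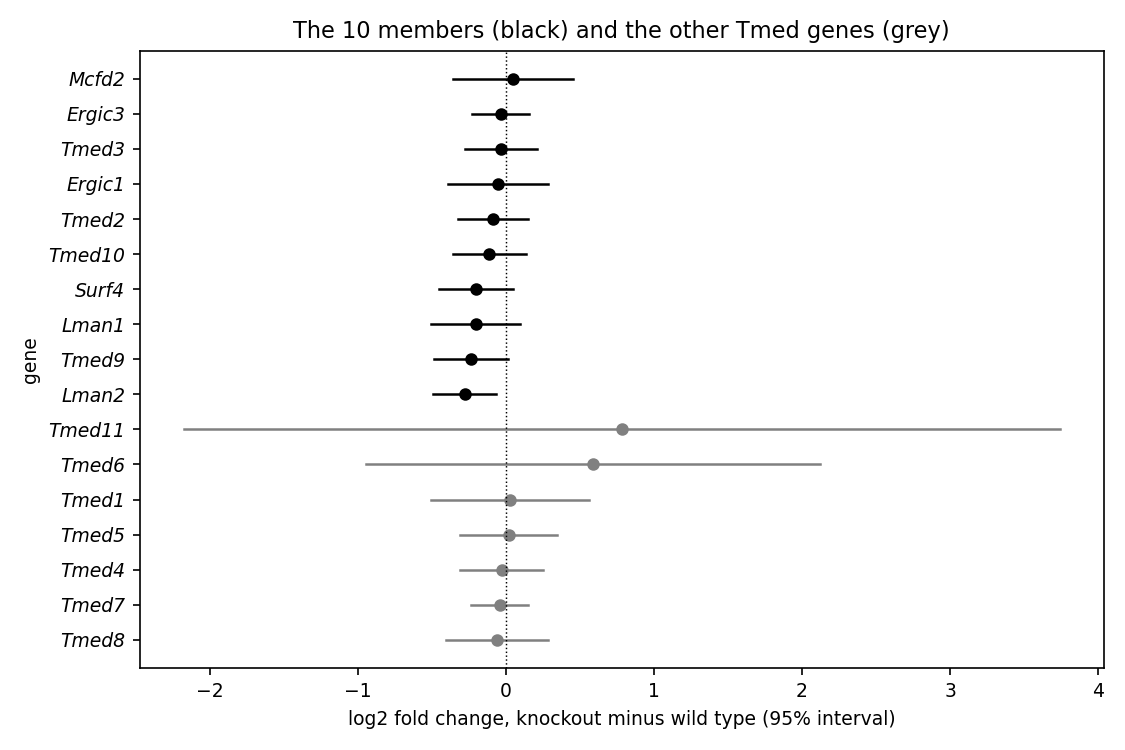
Log2 fold change, knockout minus wild type, of the 10 members (black) and of the other Tmed genes tested (grey), with limma's 95% interval (lines). Of the members, Lman2 alone has an interval clear of 0, from −0.49 to −0.06, before adjustment; Tmed6 and Tmed11 have the widest intervals.

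Levels of different genes were compared per kilobase of merged exon in GENCODE M21, a length that counts every annotated exon and may exceed that of the islet transcripts. On this scale Surf4 was highest, at 3935 normalized reads per kilobase in wild type, followed by Tmed2 at 2429. Both stood clear of their neighbours, since the lowest Surf4 library (3142) exceeded the highest Tmed2 library (2516), and the lowest Tmed2 library (2156) the highest Tmed9 library (1696). Next came Tmed9 at 1595, Lman1 at 1385, Tmed10 at 1355 and Tmed3 at 1271, whose ranges over the 6 libraries overlapped. Lman2 at 1034 and Mcfd2 at 1006 also overlapped each other, and Mcfd2 reached up to 1311, into the range of Tmed3. Ergic3 at 689 and Ergic1 at 390 were lowest, and their ranges of 641 to 708 and 319 to 441 were clear of each other and of the rest. Wild type and knockout means kept the same first 3 genes, Surf4, Tmed2 and Tmed9, in the same order. In the knockout, Lman2 ranked behind Mcfd2, at 853 against 1057 reads per kilobase.

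By library, the 10 genes together made up 0.269%, 0.292% and 0.281% of the reads of WT1 to WT3 and 0.223%, 0.233% and 0.264% in KO1 to KO3. With the acinar markers left out of the total, the shares were 0.285%, 0.295% and 0.291% against 0.269%, 0.254% and 0.266%. All knockout shares lay below all wild type shares on both counts, though on the first KO3, at 0.264%, was close to WT1, at 0.269%. A share of reads also depends on the other genes of a library: with total count scaling the median log2 fold change of all genes was −0.07. Summed normalized counts were closer: WT1 had 60881 and KO1 had 60464. KO2 held the lowest value of the 6 for 6 of the 10 genes, and WT2 and WT3 were above the gene's own mean log2 level for 9 of 10 each. WT1 was below it for 7 of 10, more than KO1 with 6, so the members did not order all libraries by genotype.

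**Figure D3:**
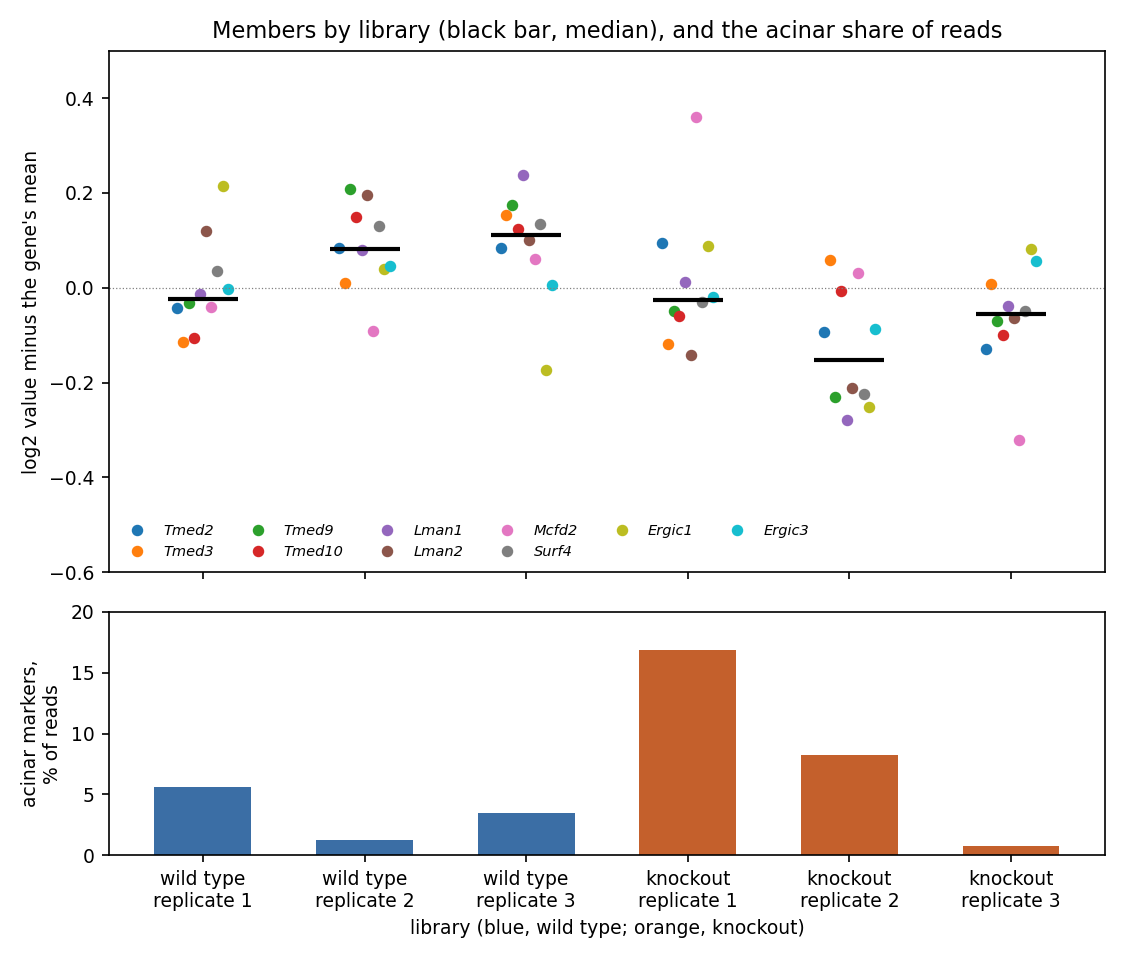
Top, log2 level of each member minus its mean over the 6 libraries (points; black bars, median of the 10); bottom, share of reads in the 23 acinar markers. The median runs from −0.15 in KO2 to 0.11 in WT3, and Mcfd2 is far above the rest in KO1 and far below them in KO3.

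Acinar markers made up 5.65%, 1.22% and 3.47% of the reads of WT1 to WT3 and 16.9%, 8.22% and 0.766% in KO1 to KO3. Mcfd2 was highest in the library with the highest acinar share and lowest in the one with the lowest share. The part of acinar RNA in the Mcfd2 values was not tested beyond the acinar covariate, with which its log2 fold change was −0.05. Lman2 was below every wild type library in KO3, which had the lowest acinar share, as well as in KO1 and KO2, which had the highest. Within each genotype, Lman2 was highest in the library with the lowest acinar share, WT2 and KO3. For Lman2 too, the part of acinar RNA was not tested beyond that covariate, with which its log2 fold change was −0.26. No wild type library reached the shares of KO1 and KO2.

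The other genes with a Tmed symbol were Tmed1, Tmed4, Tmed5, Tmed6, Tmed7, Tmed8 and Tmed11, and none passed (adjusted p = 0.993 to 0.994 in limma). Tmed7, of the gamma subfamily, was steady at 4350 to 4781 (log2 fold change −0.04, SE 0.08). Tmed4, an alpha subfamily relative of Tmed9, had a log2 fold change of −0.03 (SE 0.12), with 3112, 3488 and 3639 in WT1 to WT3 and 3058, 3161 and 3851 in KO1 to KO3. Its lowest and highest values both came from knockout libraries. Tmed8 had −0.06 (SE 0.14), Tmed5 had 0.02 (SE 0.14) and Tmed1, at normalized counts of only 103 to 160, 0.03 (SE 0.23). Tmed6 was at 426, 219 and 441 in WT1 to WT3 and 1265, 549 and 201 in KO1 to KO3, with a log2 fold change of 0.59 (SE 0.64). Tmed11 was at 86.2, 19.4 and 63.3 against 378, 127 and 11 in KO1 to KO3, with 0.78 (SE 1.25). Tmed11 placed the 6 libraries in the same order as the acinar share did, and Tmed6 did so apart from a swap of WT1 and WT3. The part of acinar RNA in both was not tested.

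**Figure D4:**
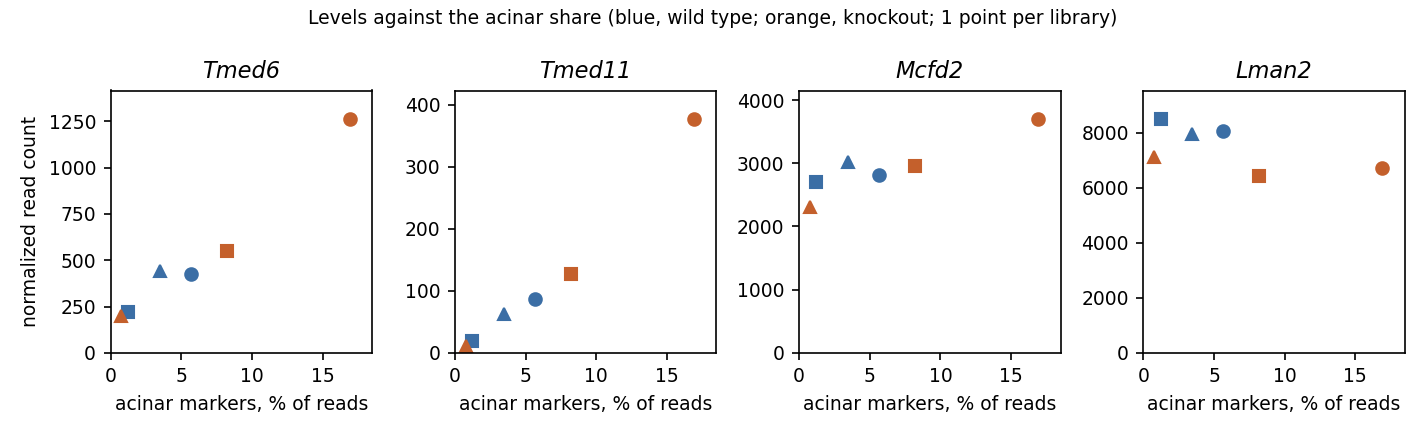
Normalized read count of Tmed6, Tmed11, Mcfd2 and Lman2 against the share of reads in acinar markers, 1 point per library (blue, wild type; orange, knockout; circle, square and triangle for replicates 1, 2 and 3). KO1, at 16.9%, has the highest Tmed6, Tmed11 and Mcfd2, while Lman2 is below every wild type value in KO3, at 0.766%, and in KO1 and KO2; no wild type library has a share above 5.65%.

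Genes of the same route, from lists drawn up with earlier results of these data known, were compared by counts. In every list limma and edgeR called 0 genes in either direction, and DESeq2 called 3, all ER chaperone or stress genes with lower values. For comparison, 5.22% of all tested genes and 9.29% of those with a mean of at least 1000 had knockout values entirely below wild type values, and 50.6% and 64.6% were below 0. A further list held other p24 proteins, cargo receptor relatives and more genes of the route, such as the Yip1 family. Of its 21 tested genes, 17 were below 0 and 4 above, with a median log2 fold change of −0.11. Knockout values lay entirely below wild type values in 2 of them. Smallest in p were Yipf5 (−0.17, SE 0.08) and Yif1b (−0.19, SE 0.10), Golgi and ER membrane proteins of the Yip1 family, and Mia2 (−0.17, SE 0.11), which helps load bulky cargo at exit sites. Of 18 COPII and exit site genes, 14 were below 0 (median −0.10, 5 entirely below, Sec16b among them). Sec16b had −1.22 (SE 0.35), its paralog Sec16a −0.10 (SE 0.11), and the coat GTPases Sar1a and Sar1b −0.16 (SE 0.09) and −0.18 (SE 0.13). Of 18 COPI, Arf and KDEL receptor genes, 15 were below 0 (median −0.15, 5 entirely below). The coat subunit Copz1 had −0.25 (SE 0.09), Kdelr2 −0.22 (SE 0.10) and Kdelr1 −0.16 (SE 0.09), both receptors that return ER proteins. Of 22 ER chaperone and unfolded protein response genes, 17 were below 0 (median −0.30, 9 entirely below), with Creld2 at −0.73 (SE 0.15), Calr at −0.61 (SE 0.15) and Sdf2l1 at −0.42 (SE 0.11). Adjusted p was 0.993 in limma for each of these named genes. DESeq2 called Calr (adjusted p = 0.00711) and Creld2 (adjusted p = 0.0374), and also Hsp90b1, an ER chaperone named here because DESeq2 called it; Sdf2l1 did not pass there (adjusted p = 0.443).

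Among cargo transcripts more lay above 0 than below. Of 15 tested genes for islet hormones, granule proteins and described receptor cargo, 5 were below 0 and 10 above, with a median of 0.04, and 1, Ppy, had knockout values entirely above wild type values. Smallest in p were the hormone genes Ppy (0.44, SE 0.18), Gcg (0.67, SE 0.62) and Sst (0.20, SE 0.20), with an adjusted p of 0.993 in limma for each. These hormones mark the PP, alpha and delta cells, whose marker lists were above 0 in 4 of 5 (delta and PP together) and 6 of 6 genes while 9 of 10 beta cell markers were below 0, and the part of cell makeup in the cargo values was not tested.

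The genes whose profile over the 6 libraries was nearest to the mean profile of the 10, among 4669 with a mean of at least 1000 and outside all lists, were Wtap, Crk, Cnpy2, Hnrnpul2 and Rnf181. Likeness was the root mean square difference of log2 levels centred on each gene's mean, which was 0.00831 for Wtap, a subunit of the RNA methylation complex, 0.0227 for Crk, 0.0261 for Cnpy2, 0.0268 for Hnrnpul2 and 0.0294 for Rnf181. The median over these 4669 genes was 0.141. The named genes were picked as the smallest of the 4669 values, so their low values follow from the search. The mean profile of the 10 ran from −0.129 in KO2 to 0.0903 in WT3, and shared regulation was not tested. Among the members the root mean square difference ran from 0.0485 for Tmed2 to 0.203 for Mcfd2. Mcfd2 and Ergic1 (0.163) lay above the median of 0.141, although each member is itself part of the mean profile. Wtap was at 1657, 1746 and 1773 in WT1 to WT3 and 1688, 1524 and 1600 in KO1 to KO3. Cnpy2, an ER protein, was at 1554, 1630 and 1693 against 1536, 1430 and 1534.

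**Figure D5:**
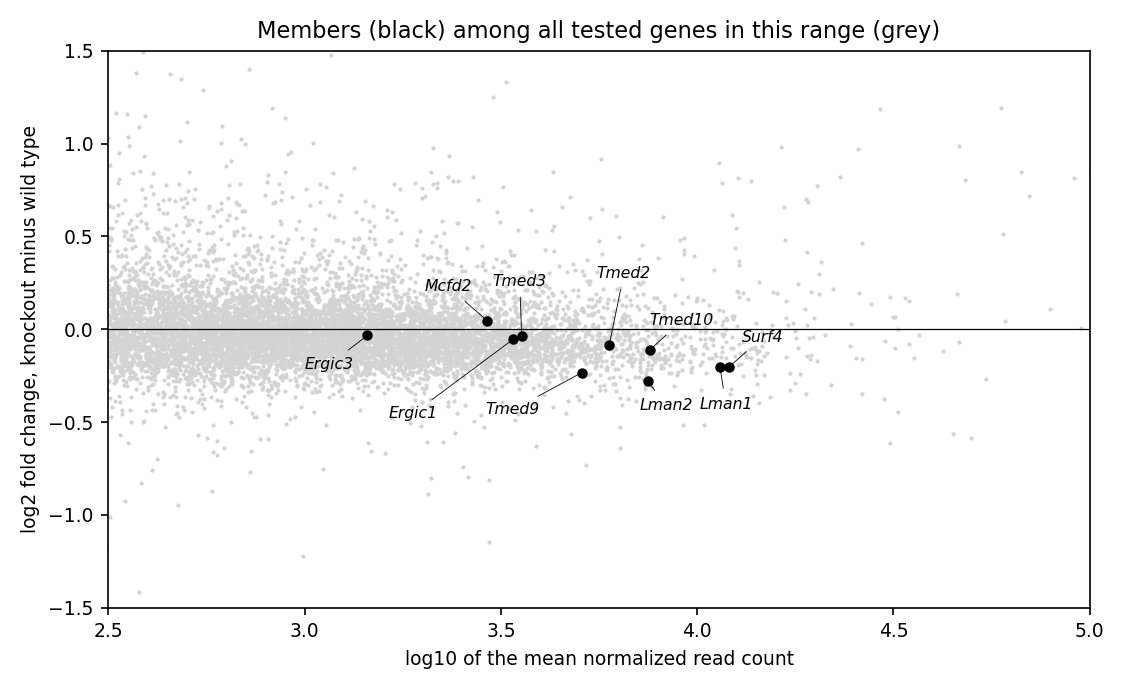
Log2 fold change against log10 of the mean normalized read count for tested genes in the range drawn (grey) and the 10 members (black). The members lie inside the cloud of genes of like abundance, between −0.28 (Lman2) and 0.05 (Mcfd2).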

How the data were processed

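Islet RNA was extracted after freezing and sequenced by the authors. HISAT2 is the aligner in the submitters' processing notes; its version, the counter, the build, the annotation and any use of strand were not given in the sources used here. Reads of overlapping, antisense or near-identical genes may therefore have been shared. The deposited table holds normalized signal: in each library, 100% of its values were whole multiples of a library step (0.879 to 1.23) to within 0.01 reads, as gene counts scaled by the authors would be. With 0 values at zero, genes lacking reads in some library were not analysed here. Depth was 22071895 to 26806787 reads.

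The filter asked for a value of 10 or more in 3 or more libraries, which retained 16042 genes and removed 2395. Limma 3.58.1 (R 4.3.3) tested log2(value + 1), which understates changes of low genes, with a mean-variance trend, two-sided, and Benjamini-Hochberg adjustment over all genes at 0.05. Recovered reads went into edgeR 4.0.16 (quasi-likelihood) and DESeq2 1.42.0, whose undefined adjusted p-values were left undefined. The fits were tested on simulated counts. Replicates were not duplicates, since chi-square per degree of freedom within a genotype ran from 49.9 to 284.

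The members, lists and tests were chosen with earlier results of these data known. Named are the 10 members, Sec16a, Sec16b, the tested Tmed genes, the 3 of smallest p in each of 5 lists, and the 5 nearest profiles. Alternatives covered pseudocount, filter, scaling, tool, variance model, array weights, covariates, a replicate block and leaving out libraries. Promoter stretches came from RefSeq (GRCm38.p6) and exon lengths from GENCODE M21, both matched by symbol. No coordinates are given from the authors' files.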

Additional observations from a re-analysis of the deposited data

How the results depend on the processing

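The number of members called stayed at 0 in each of 22 alternatives, and genes called stayed at 0 in all but DESeq2, which called 12. With both libraries numbered 1 left out, a choice made after seeing the data, the median log2 fold change of the 10 was −0.19. In that setting 6 had knockout values entirely below wild type values, against 16% of all tested genes and 28.1% of those with a mean of at least 1000. With total count scaling the median was −0.17, where the median of all genes moved to −0.07. Leaving out single libraries gave medians from −0.16 to −0.064, and 3 to 5 members whose groups did not overlap. The count of 5 came without WT1 or without KO1. Knockout values were then entirely below in 11.4% and 8.83% of all tested genes, and in 21% and 14.8% of those with a mean of at least 1000. For the other single libraries left out, the share over all genes was not computed. Between 7 and 10 members were below 0 in the alternatives run, and Tmed2, Tmed9, Tmed10, Lman1, Lman2 and Surf4 were below 0 in all 22.

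The other 4 genes changed sign in some alternatives. Mcfd2 turned to −0.0249 with total count scaling, −0.0526 with the acinar covariate, −0.0406 with the lymphocyte covariate and −0.13 without both libraries numbered 1, and ran from −0.12 (KO1 left out) to 0.22 (KO3 left out). Tmed3 turned to 0.0462 with the lymphocyte covariate, and ran from −0.10 to 0.0339 (WT3 left out) with single libraries left out. Ergic1 ran likewise from −0.15 (WT3 left out) to 0.0583 (KO2 left out), and Ergic3 from −0.0703 (KO3 left out) to 0.0017 (KO2 left out). The cause was not tested.

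With the replicate number as a block, 0 genes and 0 members were called and the median was −0.10, as without it. The labels do not pair the libraries: same-numbered libraries had correlations of deviations of 0.43, 0.0037 and 0.37, and WT2 correlated best with KO3 (0.20), unlike WT1 and WT3, which did so with their own number. Each member had over 1000 reads in each library. The SE rests on the spread between the 3 libraries of a genotype, which limma moves toward its mean-variance trend over all genes. For Lman2 the SE was 0.09, against 0.05 from its own spread alone, and for Mcfd2 it was 0.17 against 0.20.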
